A study of Mus musculus with 4 samples.

Results

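The desmosome genes examined here are the desmosomal cadherins Dsg2 and Dsc2, the armadillo proteins Jup, Pkp1, Pkp2 and Pkp3, the plakins Dsp, Ppl and Evpl, and the tetraspan protein Perp. They were taken by name from a list of desmosome components, and each is read by 1 probe set that the array's probe-to-gene table gives a single symbol, so all 10 were measured among 19938 genes. The cells are Py2T, a mouse breast cancer line derived from a mammary tumour driven by the polyoma middle T antigen, which turns mesenchymal under TGFβ. Total RNA of Py2T cells was hybridised to 4 Affymetrix arrays, 2 for cells left untreated and 2 for cells kept in 2 ng/ml TGFβ over 5 days, all grown in DMEM with 10% FCS. All arrays come from 1 cell line, and the labels call the samples biological replicates without saying whether cultures were grown apart; the p-values reflect only how far these samples spread, which may be technical. Values are RMA log2 values between 3.33 and 14.29, with array medians between 6.74 and 6.76. They carry no detection calls, and the number of arrays limits the precision.

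Desmosomes are spot-like junctions that tie the keratin filaments of neighbouring epithelial cells together. Desmogleins and desmocollins, which are cadherins, bind each other in the gap between the cells. Inside the cell their tails hold plakoglobin (Jup) and the plakophilins, armadillo-repeat proteins, which recruit desmoplakin (Dsp), and desmoplakin holds the keratins. Periplakin (Ppl) and envoplakin (Evpl) are plakins of the cell cortex that also serve the cornified envelope of stratified epithelia, and Perp is a membrane protein needed for desmosome assembly in skin. In mammary epithelium desmosomes lie below the adherens junctions, and their loss is a known part of epithelial to mesenchymal transition.

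Of the 10 genes, 5 were lower after TGFβ and 0 were higher at an adjusted p under 0.05 in limma, with Benjamini-Hochberg adjustment over all 19938 genes. Across all genes 7.15% were called lower and 6.49% higher by the same rule. In a fit on the brighter 50% of genes, 1315 of 9969 genes and 5 of 9 members were called lower. The members that fell were Ppl, to 19.95% of the untreated level (95% interval 14.8% to 26.9%), Perp, to 48.8% (42.9% to 55.6%), Pkp3, to 58.3% (50.4% to 67.5%), Dsp, to 63.1% (55.4% to 71.9%), and Pkp1, to 67.4% (56.6% to 80.3%). Jup, Pkp2, Dsc2, Dsg2 and Evpl did not pass. The median log2 difference of the 10 genes was -0.45, against 0.01 over all genes. A difference of at least 2-fold was called for 2 of the 10, Ppl and Perp, where 1.78% of all genes were called lower at that size. In either direction 13.6% of all genes were called. In bulk RNA, fewer cells that express a gene and less RNA per cell cannot be told apart.

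**Figure D1:**
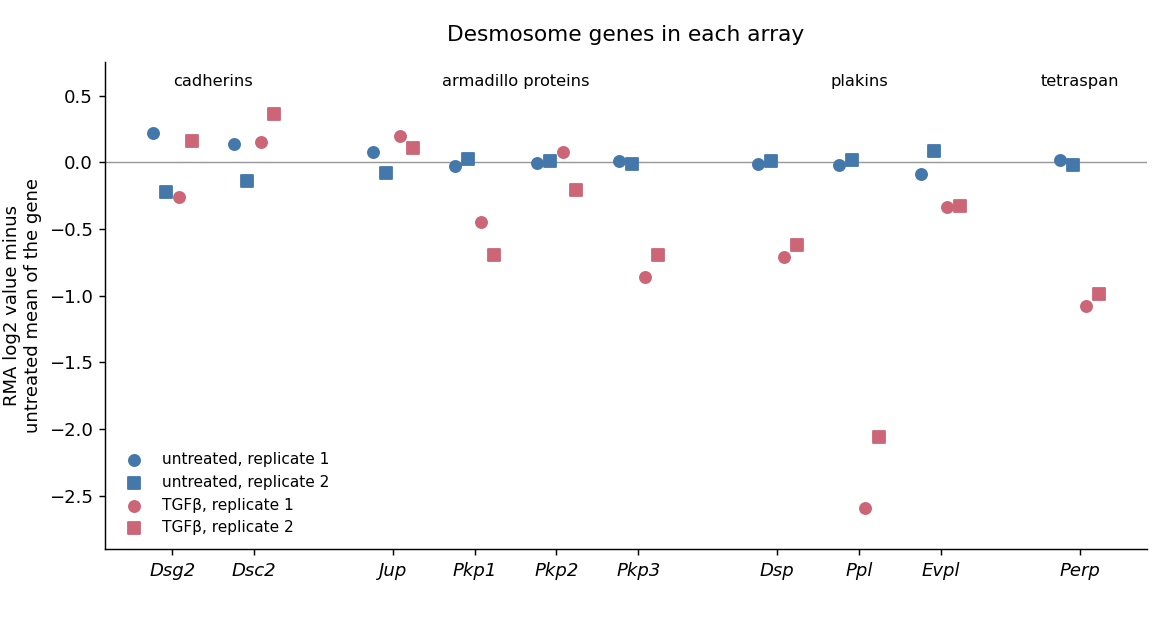
RMA log2 value of each desmosome gene in each of the 4 arrays, minus the mean of its 2 untreated arrays (y axis, log2 units), with genes on the x axis grouped by the kind of protein. Blue marks are untreated and red marks TGFβ arrays, circles replicate 1 and squares replicate 2. Both TGFβ arrays of Ppl lie more than 2 log2 units down, those of Perp near -1, and those of Pkp2 on both sides of the untreated arrays. For Dsg2, TGFβ replicate 1 lies just below both untreated arrays and TGFβ replicate 2 between them.

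The desmosomal cadherins form the adhesive contact itself. Dsg2 (probe set 10454172), the desmoglein of simple epithelia, measured 7.94 and 7.50 (RMA log2 value) in untreated replicates 1 and 2 and 7.46 and 7.88 in TGFβ replicates 1 and 2. Each group had 1 high and 1 low array, and the groups overlapped. The fitted log2 difference was -0.05 ± 0.19 (SE; 95% interval -0.53 to 0.42, limma adjusted p = 0.93), so a fall to 69.4% or a rise to 134% of the untreated level lies within the interval. Its sign turned when single arrays were left out, from -0.27 to 0.17.

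Dsc2 (probe set 10457686), the desmocollin of simple epithelia, measured 7.02 and 6.74 without TGFβ and 7.03 and 7.24 with it (replicates 1 and 2 of each group, in that order here and below). The TGFβ arrays lay above both untreated arrays, the closest pair only about 0.01 apart. The log2 difference of 0.26 ± 0.12 (95% interval -0.05 to 0.56) did not pass in limma (adjusted p = 0.28). All 4 Dsc2 values lie close to the array medians, above the 10th percentile of all values, 4.53. In the RefSeq gene order for mouse, Dsc2 and Dsg2 sit in a run of 9 desmosomal cadherin genes, unbroken among protein-coding genes, that starts next to Cdh2, the N-cadherin gene, and ends next to Ttr. Of the other 7 genes in this run, Dsg1b, Dsg1c, Dsg3, Dsg4 and Dsc3 were measured, with group means under the array medians and log2 differences between 0.02 and 0.13, and 0 of them passed. Dsg1a and Dsc1 are not analysed here.

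Plakoglobin, Jup (probe set 10391103), is shared by desmosomes and adherens junctions, since it can bind the tails of both kinds of cadherin. It measured 12.60 and 12.44 without TGFβ and 12.72 and 12.63 with it. The TGFβ arrays were the higher ones by a small margin, in the upper part of the array's range. Differences can be compressed there, but whether that of Jup was compressed was not tested. The log2 difference was 0.15 ± 0.09 (95% interval -0.07 to 0.37, limma adjusted p = 0.37), and the interval's lower bound leaves room for a fall to 95.6% of the untreated level.

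The plakophilins link the cadherin and plakoglobin complex to desmoplakin and differ in where they are made, with Pkp2 and Pkp3 in simple epithelia and Pkp1 mostly in stratified ones. Pkp3 (probe set 10558795) measured 9.41 and 9.39 without TGFβ and 8.54 and 8.70 with it. The groups were well apart, with a gap many times the distance between the untreated arrays. Pkp3 fell by 0.78 ± 0.09 (SE) on the log2 scale, or 1.72-fold (limma adjusted p = 0.0041).

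Pkp1 (probe set 10358124) measured 10.50 and 10.55 without TGFβ and 10.08 and 9.83 with it, so the groups did not overlap and the TGFβ arrays were the more spread. It fell by 0.57 ± 0.10 on the log2 scale, or 1.48-fold (limma adjusted p = 0.020). Pkp1 no longer passed when untreated replicate 1 (-0.59, limma adjusted p = 0.068) or untreated replicate 2 (-0.55, adjusted p = 0.080) was left out, and it passed without either TGFβ array. Pkp2 (probe set 10433887) measured 10.22 and 10.23 without TGFβ and 10.30 and 10.02 with it, with 1 TGFβ array above and 1 below both untreated arrays. Its log2 difference was -0.07 ± 0.11 (95% interval -0.33 to 0.20, limma adjusted p = 0.82), an interval that ends at 79.4% of the untreated level on the low side.

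Within each array the plakophilins were also compared with each other, by taking the log2 ratio of a pair and setting its TGFβ mean against its untreated mean. Pkp1 moved down relative to Pkp2 by 0.50 ± 0.02 (SE over 2 against 2 arrays), with -0.52 and -0.49 in TGFβ replicates 1 and 2. Pkp2 moved up relative to Pkp3 by 0.71 ± 0.22, with 0.93 and 0.49. Pkp1 and Pkp3 differed less, by 0.21 ± 0.21, with 0.41 in TGFβ replicate 1 and 0.01 in TGFβ replicate 2. These are 3 of 10 pairs formed within the kinds of protein after the values had been seen, and the smallest p of an exact two-sided permutation test with 2 arrays a group is 0.333, so no pair could pass (exact p = 0.333 for Pkp1 and Pkp2 and for Pkp2 and Pkp3, adjusted p = 0.370 over the 10 pairs). A ratio shows unequal change within the arrays and does not show that either gene stayed constant.

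The plakins connect the junction to the cytoskeleton. Periplakin, Ppl (probe set 10437516), gave the largest difference of the 10 genes, from 9.59 and 9.62 without TGFβ to 7.01 and 7.55 with it. The untreated arrays nearly coincided, and both TGFβ arrays lay about 2 log2 units or more below them. Ppl fell by 2.33 ± 0.17 on the log2 scale, or 5.01-fold (limma adjusted p = 0.0013), the 45th lowest difference among the 19938 genes. Ppl passed without each of the 4 arrays in turn, with falls between 2.06 and 2.59 on the log2 scale.

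Desmoplakin, Dsp (probe set 10404649), the obligate keratin anchor of the desmosome, measured 10.84 and 10.87 without TGFβ and 10.15 and 10.24 with it. Both groups were tight and did not overlap. Dsp fell by 0.66 ± 0.08 on the log2 scale, or 1.58-fold (limma adjusted p = 0.0047). It passed without each array in turn, with adjusted p between 0.011 and 0.025.

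Envoplakin, Evpl (probe set 10393197), the partner with which periplakin forms dimers, measured 7.78 and 7.95 without TGFβ and 7.53 and 7.54 with it. The TGFβ arrays almost coincided and lay below both untreated arrays, so the groups did not overlap. The log2 difference was -0.33 ± 0.09 (95% interval -0.54 to -0.11), and it did not pass the threshold over all genes in limma (adjusted p = 0.065). Within arrays, Ppl moved down relative to Evpl by 2.00 ± 0.27 (-2.26 and -1.73 in the 2 TGFβ arrays), and Dsp moved up relative to Ppl by 1.66 ± 0.22 (exact permutation p = 0.333 for both, the smallest that 2 against 2 arrays allow, adjusted p = 0.370 over the 10 pairs).

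Perp (probe set 10361887), a tetraspan membrane protein of the PMP22 family that was first described as a target of p53 and is driven by p63 in stratified epithelia, measured 12.22 and 12.18 without TGFβ and 11.12 and 11.21 with it. The arrays of each group lay within about 0.1 of each other, about 1 log2 unit apart between groups. Perp fell by 1.03 ± 0.08 on the log2 scale, or 2.05-fold (limma adjusted p = 0.0012). Leaving out single arrays moved the fall only between 0.99 and 1.08. Trp63 differed by -0.09 (adjusted p = 0.56), with group means near the array medians, and Trp53 is not analysed here.

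**Figure D2:**
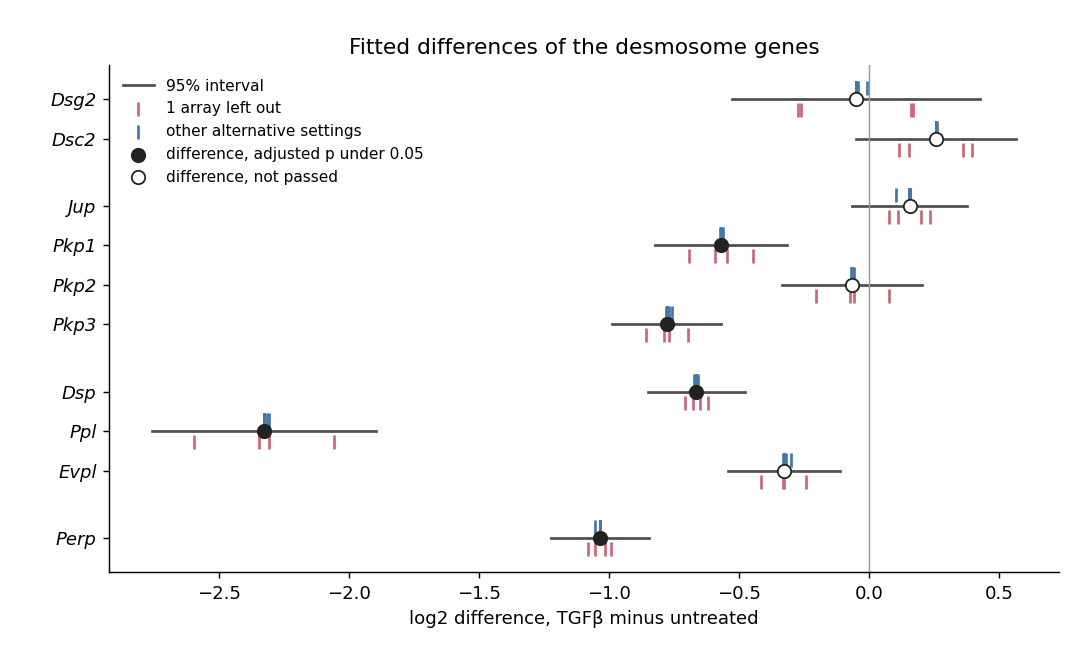
Fitted log2 difference (TGFβ minus untreated, x axis) of each desmosome gene (y axis), with its 95% interval from limma as a line. Filled circles passed at an adjusted p under 0.05 and open circles did not; red ticks give the difference with 1 array left out, blue ticks that under the other alternative settings. Ppl at -2.33 stands apart, the ticks of Ppl, Perp, Pkp3, Dsp, Pkp1 and Evpl all lie below 0, and those of Dsg2 and Pkp2 fall on both sides of 0 when 1 array is left out.

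The members can also be placed in the distribution of all genes, as a description. Ppl had a lower difference than all but 0.221% of the genes, Perp than all but 1.77%, Pkp3 than all but 2.81%, Dsp than all but 3.58% and Pkp1 than all but 4.43%. Evpl lay further in, with 9.57% of genes below it, and Pkp2 and Dsg2 lay near the middle, with 30.2% and 33.0% below them. Jup and Dsc2 lay on the other side, with 81.5% and 88.6% of genes below them.

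**Figure D3:**
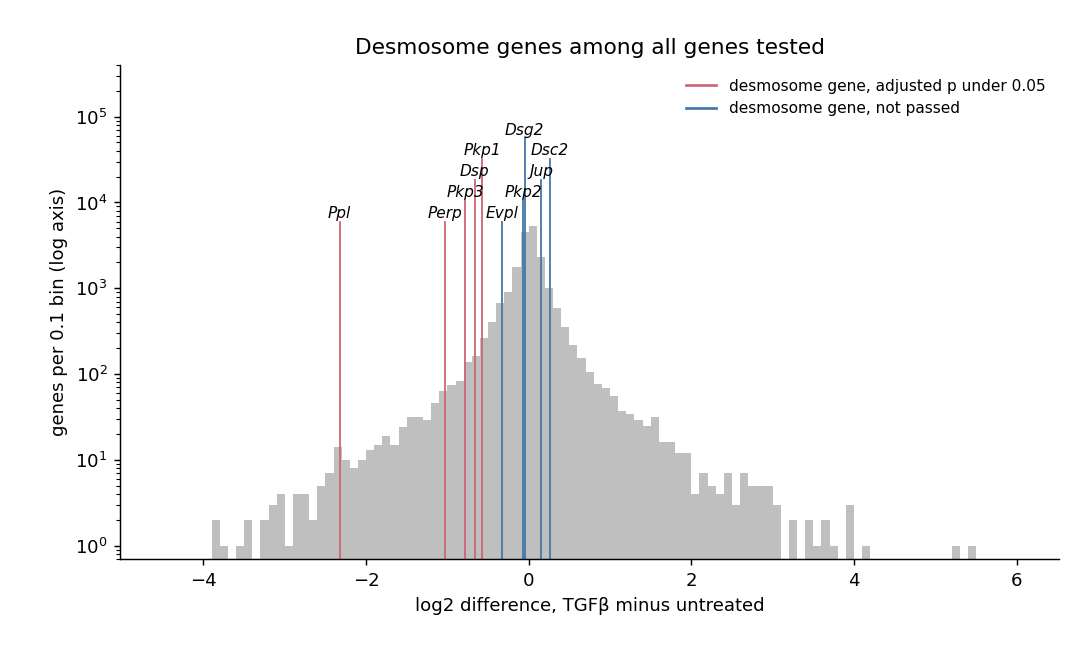
Number of genes (y axis, log axis) in each 0.1-wide bin of the fitted log2 difference, TGFβ minus untreated (x axis), over the 19938 genes tested, with the 10 desmosome genes as vertical lines. Red lines passed at an adjusted p under 0.05 and blue lines did not; line height only keeps the names apart. The 5 red lines run from -2.33 for Ppl to -0.57 for Pkp1, in the left tail, and the blue lines lie between -0.33 and 0.26.

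RefSeq promoter windows, from 250 bases before to 50 after the gene start, could be matched for 2 members, Dsp and Jup. They are shown because no other member had a window, so Ppl, Perp, Pkp3 and Pkp1, which also fell, could not be read. The E-box CAGGTG was searched because Zeb and Snail factors, which rose in these arrays, are known to bind it. Whether these factors act on either gene was not tested. The stretch from 100 bases before to 20 after the start of each gene is given 5′ to 3′ on the gene's strand, with capitals for CAGGTG read on either strand (build GRCm38.p6; Dsp at chr13:38151194-38151313, plus strand; Jup at chr11:100397771-100397890, minus strand).
Dsp: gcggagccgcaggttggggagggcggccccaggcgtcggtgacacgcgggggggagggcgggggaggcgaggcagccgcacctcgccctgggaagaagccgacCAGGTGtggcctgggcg
Jup: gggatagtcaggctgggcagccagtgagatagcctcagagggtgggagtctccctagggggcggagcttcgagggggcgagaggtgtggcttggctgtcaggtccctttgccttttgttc
The Dsp window held 1 match, at bases 4 to 9 counted from the gene start as base 1, and the Jup window of 300 bases held 0. Of 32851 windows in the table, 20.2% held at least 1 match. The match is a description of the letters in these windows, and no binding was measured here.

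Genes of related kinds were read from lists chosen with earlier results of these data known, and are given by counts beside the 7.15% of all genes called lower and the 6.49% called higher. Of 10 measured further desmosomal or desmosome-associated genes, 0 rose, 1 fell and 9 did not pass (median log2 difference 0.01). The one that fell was Pof1b, an actin-binding protein found at desmosomes, from 7.12 ± 0.59 to 4.81 ± 0.10 (log2 mean ± SD, n = 2), a fall of 2.31 on the log2 scale (limma adjusted p = 0.0043) that ends close to the 10th percentile of all values, 4.53. Pkp4, a relative of the plakophilins at adherens junctions and desmosomes, differed by -0.30 (adjusted p = 0.15).

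Among relatives of the desmosomal plakins, 1 of 4 fell, epiplakin, Eppk1, a keratin-binding plakin, by 0.75 on the log2 scale (limma adjusted p = 0.0059). The hemidesmosomal plakins Plec and Dst differed by 0.34 and 0.28 without passing (adjusted p = 0.073 and 0.089), and Plec passed after cyclic loess (adjusted p = 0.048). Of 4 relatives of Jup and the plakophilins 1 fell, p120-catenin, Ctnnd1, which stabilises classical cadherins, by 0.48 (limma adjusted p = 0.014). Ctnnd1 did not pass when either untreated array was left out (adjusted p = 0.068 for both). Beta-catenin, Ctnnb1, the closest relative of Jup, differed by 0.05 (95% interval -0.19 to 0.30).

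Of 5 relatives of Perp 1 fell, Pmp22, by 0.43 on the log2 scale (limma adjusted p = 0.046). Emp2 had a larger log2 difference, -0.95 (95% interval -1.56 to -0.34), close to that of Perp, without passing (limma adjusted p = 0.060). It passed with either filter on dim genes (limma adjusted p = 0.042 and 0.038). Emp1 differed by -0.27, and Emp3 and Tmem47 by 0.05 and 0.11, without passing. Pmp22 did not pass after cyclic loess (adjusted p = 0.067) or repeated quantile normalization (adjusted p = 0.074). Its adjusted p was 0.078 and 0.19 with untreated replicates 1 and 2 left out in turn, and 0.15 with TGFβ replicate 1 left out. Perp itself kept its call under each of these settings.

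In adherens junctions, the neighbours of desmosomes, 2 of 10 genes rose, 2 fell and 6 did not pass (median 0.06). The nectin Nectin1 rose by 0.88 on the log2 scale (limma adjusted p = 0.0085). Afdn fell by 0.88, with 10.50 and 10.49 in the TGFβ arrays (limma adjusted p = 0.0019). The E-cadherin gene Cdh1 fell by 1.25 ± 0.22, with 9.97 and 10.66 in the TGFβ arrays, a wider spread than any desmosome member showed (adjusted p = 0.017, and 0.057 without untreated replicate 1). Of 6 keratins that can anchor at desmosomes 0 rose and 1 fell, the basal keratin Krt14, by 1.38 (limma adjusted p = 0.043). Krt14 did not pass when the variances were modelled on intensity with robust moderation (adjusted p = 0.11), and leaving out replicate 2 of either group gave 0.12 (untreated) and 0.0995 (TGFβ).

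Of 11 measured regulators tied to desmosome genes 4 rose, 3 fell and 4 did not pass. Zeb1, a repressor of epithelial genes, rose by 1.69 on the log2 scale (limma adjusted p = 8.7e-04), and Grhl2, an activator of epithelial genes, fell by 1.60 (adjusted p = 0.0012). Of 6 kinases, proteases and traffic genes of desmosomes 1 rose, Egfr, whose kinase signalling loosens desmosomes, by 1.05 (limma adjusted p = 0.0016), and 2 fell. These were Adam17, a sheddase, by 0.62 on the log2 scale (limma adjusted p = 0.0068), and Ocln, by 3.07 (adjusted p = 7.4e-04), which encodes a tight junction protein and is no desmosome gene although the list holds it.

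**Figure D4:**
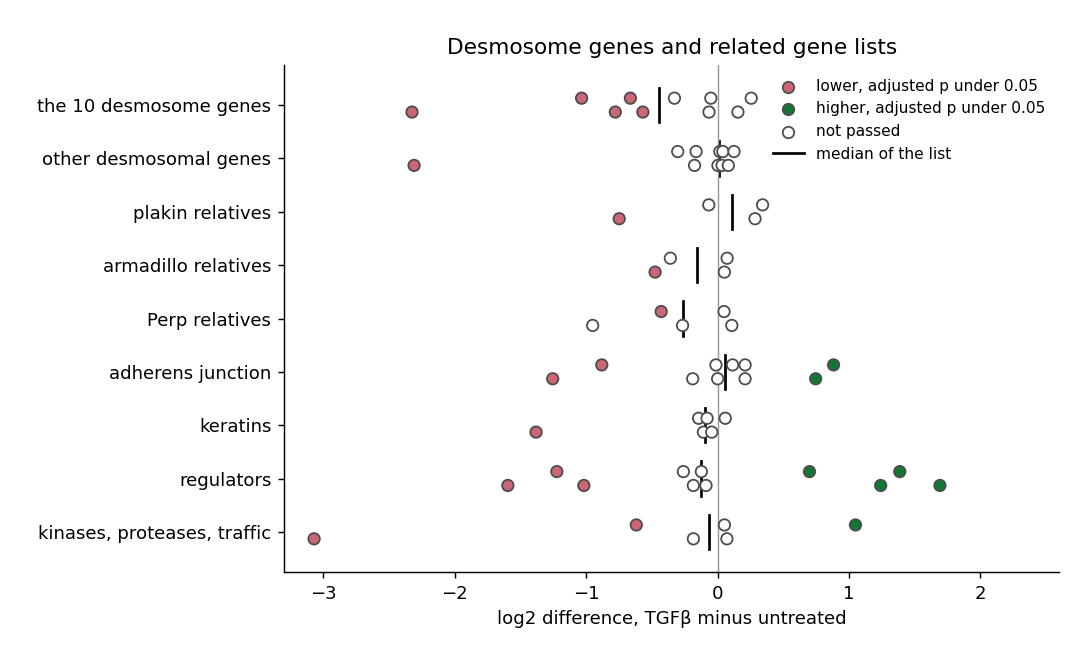
Fitted log2 difference, TGFβ minus untreated (x axis), of each gene of the 10 desmosome genes and of 8 related lists (y axis), 1 circle a gene, with a black line at each list's median. Red circles fell and green circles rose at an adjusted p under 0.05, and open circles did not pass. The desmosome genes have 5 red and 0 green circles around a median of -0.45; the regulators have 4 green and 3 red circles.

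Marker lists for epithelial and other cell types were read in the same arrays. Their counts stand beside the 7.15% of all genes called lower and the 6.49% called higher. Of 7 epithelial markers 4 fell, and their summed linear level was between 35368 and 36104 without TGFβ and between 26824 and 28694 in the TGFβ arrays, with Krt8 and Krt18 above 13 in both groups. Of 5 leukocyte, 4 endothelial and 3 adipocyte markers 0 passed. Ptprc, Pecam1 and Adipoq lay under the array medians in all 4 arrays. Cd3e (6.81 to 6.95) and Cd68 (7.60 to 9.63) lay above them in all 4, and Plin1 did in both TGFβ arrays (6.83 and 6.98). The summed adipocyte level was between 183 and 189 without TGFβ and between 202 and 233 with it. Adipoq, Plin1 and Fabp4 differed by 0.12, 0.16 and 0.42 (limma adjusted p = 0.40, 0.33 and 0.10). The summed leukocyte level went from between 716 and 1048 to between 441 and 584, carried by Cd68 (log2 difference -1.29, limma adjusted p = 0.052, and 0.025 with untreated replicate 2 or 0.031 with TGFβ replicate 2 left out). Of 5 fibroblast markers 1 rose, Col1a1, by 0.46 (limma adjusted p = 0.027). Col1a1 did not pass with untreated replicate 1 left out (adjusted p = 0.13), nor with TGFβ replicate 1 (0.096) or 2 (0.061) left out. The summed fibroblast level was between 782 and 840 without TGFβ and between 965 and 1115 with it. Besides Col1a1, Pdgfra added to this sum, with a log2 difference of 0.49 that did not pass (limma adjusted p = 0.097). Dcn, Lum and Col3a1 differed by -0.10, 0.006 and 0.007. Of 5 smooth muscle and myoepithelial markers 1 fell, Krt14, and their sum went from between 2080 and 3217 to between 1008 and 1490. This fall in the sum was carried by Krt14, by far the brightest of the list. Acta2 and Cnn1 lay higher in both TGFβ arrays, by 0.26 and 0.19, without passing (limma adjusted p = 0.21 and 0.18). Myh11 and Oxtr differed by 0.009 and -0.045. The part of these markers in the differences of the desmosome genes was not tested.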

How the data were processed

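The authors deposited 1 log2 value per probe set and array, made with RMA in the R package oligo per the submitters' processing notes. Versions and probe-set annotation: not given in the sources used here. Per the labels' protocols, 100 ng of total RNA was amplified with an Ambion kit. Probe sets with a single symbol (21789 of 35556) were kept, the brightest by mean over the 4 arrays for each gene, leaving 19938 genes. The test was limma 3.58.1 under R 4.3.3 (lmFit and eBayes, 2 residual and 3.77 prior degrees of freedom), adjusted over all genes after Benjamini and Hochberg. Beyond this choice of probe sets, nothing was filtered or renormalized for the main fit. The steps were tested on simulated data. In 10 simulations 10.7% of true log2 changes of 0.5 were recovered, 89.6% of those of 1 and 98.6% of those of 2. Each simulation changed fewer genes than were called here, so these shares need not hold for these arrays. Alternatives were median centring, cyclic loess, quantile normalization, filters on dim genes, the mean of a gene's probe sets, an intensity trend with robust variances, a replicate block, a 2-fold minimum and leaving out each array. The 10 genes are named whatever their values; from each related list the called genes with the largest rise and fall are named, and others as examples. Members and lists were chosen with earlier results of these data known. Members' Entrez identifiers were matched to RefSeq for names, and its promoter table held 2 of the 10.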

Additional observations from a re-analysis of the deposited data

How the results depend on the processing

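All 5 falls among the desmosome genes (Ppl, Perp, Pkp3, Dsp and Pkp1) were called with median centring, cyclic loess, quantile normalization, both filters on dim genes, the mean of all probe sets and the intensity trend with robust variances. The filter that drops the dimmer 50% of genes left out Dsc2. Of 10 members 4 were called without untreated replicate 1 or 2, where Pkp1 was lost, and 5 without either TGFβ array. With a 2-fold minimum 2 were called, and 677 of all genes in place of 2720. Leaving out untreated replicate 1 gave 1535 called genes in all and untreated replicate 2 gave 1764. Leaving out TGFβ replicate 1 gave 1811 and TGFβ replicate 2 gave 2260. In these fits the single array left in a group is taken to vary as the other group does. The deviations of same-numbered arrays from their group means had a correlation of -0.213 over 19938 genes. With 2 arrays a group the crossed pairing must give the same size with the opposite sign. The value therefore cannot decide whether the replicate numbers pair the arrays. With the replicate number as a block 1624 genes and 4 desmosome genes were called, and Pkp1 had an adjusted p of 0.055 in limma; of the related genes named, Pmp22 (0.052), Krt14 (0.12) and Col1a1 (0.075) did not pass with it either. A crossed pairing, chosen after seeing the data, called 3640 genes and 6 desmosome genes, with Evpl added (limma adjusted p = 0.046). No detection calls come with the values, so signal over background could not be given for single members.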
